A study of Mus musculus with 2 samples.

Results

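The cells described here are fibroblasts of the mouse mitral valve that held more genes of a set led by Ptx3, Igfbp3, Tnfaip6 and Smoc2 than of a set led by Fmod and Prg4. They came from single-cell RNA-Seq of leaflets digested with collagenase and elastase, from which viable cells were sorted. There was 1 library of WT mice and 1 of mgR mice, which carry the hypomorphic mgR allele of Fbn1 on both chromosomes and therefore make less fibrillin-1, and their wild-type littermates served as WT controls. Both kinds of mice were 12 weeks old, on the C57BL/6J background and with no treatment given for these libraries. The mgR allele is carried by every cell of the animal and not by fibroblasts alone. The study gives the number of mice, but no label ties a cell to a mouse.

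UMIs (unique molecular identifiers) each stand for 1 captured RNA molecule. Cells were kept when 200 to 5000 genes were found in them and no more than 10% of their UMIs were mitochondrial. Such a cell was gated as a fibroblast when it held at least 10 UMIs of Col1a2, Col3a1, Dcn and Lum together, fewer than 5 of C1qa, C1qb and C1qc, and at most 1 of Pecam1 and Cdh5. A gated cell was a member when it held a UMI of more genes of set B (Ptx3, Igfbp3, Tnfaip6, Smoc2, Mmp3, Srpx, Col8a1 and Ms4a4d) than of set A (Fmod, Prg4, Comp, Angptl7, Wif1, Scx, Chrdl1 and Fibin). This gave 563 members among 1207 gated fibroblasts and 4313 cells in all. Of these, 155 came from the WT library and 408 from the mgR library. Gated fibroblasts with more set A than set B genes, called set A fibroblasts below, numbered 116 and 359, and cells with equal numbers 53 and 116. The members were thus chosen by the detection of the 16 genes of both sets in these same cells, so the values of these genes are a description and support nothing.

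Valve interstitial cells are the fibroblast-like cells that build and maintain the leaflet matrix of collagen, proteoglycans and elastic fibers. Pentraxin 3, the product of Ptx3, and TSG-6, the product of Tnfaip6, are secreted proteins that act together on hyaluronan: TSG-6 transfers heavy chains of inter-alpha-inhibitor onto the hyaluronan chain, and pentraxin 3 binds those heavy chains and helps to cross-link the gel. Both genes are known to respond to inflammatory cytokines. In myxomatous valves the spongy, glycosaminoglycan-rich layer of the leaflet expands.

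The bases upstream of 4 genes are shown because these genes respond to inflammatory signals in many cells. Ptx3, Tnfaip6 and Mmp3 belong to set B, and Cxcl1 is a chemokine gene outside the rule that was among the 12 genes highest in members against set A fibroblasts. The sequences are the 250 bases before the gene start in RefSeq for GRCm38.p6, on the strand of the gene, and capitals mark a match to a form of the NF-kB motif (GGGA, any 4 bases, then CC) or of the AP-1 motif (TGANTCA), searched on both strands. Ptx3 lies at chr3:66219637-66219886 (plus strand), Tnfaip6 at chr2:52037863-52038112 (plus strand), Mmp3 at chr9:7445572-7445821 (plus strand) and Cxcl1 at chr5:90890995-90891244 (plus strand), where each range covers the printed bases.
Ptx3: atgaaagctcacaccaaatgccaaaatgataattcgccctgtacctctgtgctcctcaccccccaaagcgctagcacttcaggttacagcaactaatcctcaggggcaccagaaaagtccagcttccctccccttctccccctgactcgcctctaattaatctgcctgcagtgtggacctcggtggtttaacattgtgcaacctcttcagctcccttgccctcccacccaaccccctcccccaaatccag
Tnfaip6: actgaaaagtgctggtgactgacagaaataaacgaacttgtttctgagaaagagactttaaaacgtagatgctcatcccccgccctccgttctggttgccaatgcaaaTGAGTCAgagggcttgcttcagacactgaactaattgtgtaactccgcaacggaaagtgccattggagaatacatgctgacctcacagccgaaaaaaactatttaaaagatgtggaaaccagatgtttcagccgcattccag
Mmp3: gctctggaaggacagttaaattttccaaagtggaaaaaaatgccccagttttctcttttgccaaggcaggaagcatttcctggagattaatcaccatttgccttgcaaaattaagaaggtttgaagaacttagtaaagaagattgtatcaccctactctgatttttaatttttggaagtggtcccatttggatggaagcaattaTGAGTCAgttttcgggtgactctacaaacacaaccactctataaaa
Cxcl1: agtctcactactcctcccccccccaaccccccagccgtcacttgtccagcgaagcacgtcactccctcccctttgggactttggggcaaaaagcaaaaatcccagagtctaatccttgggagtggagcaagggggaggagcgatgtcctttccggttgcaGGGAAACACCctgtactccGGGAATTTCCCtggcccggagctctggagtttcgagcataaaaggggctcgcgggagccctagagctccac
The Tnfaip6 sequence holds 1 match to TGANTCA, which begins 142 bases before the gene start, and the Mmp3 sequence holds 1 that begins 46 bases before it. The Cxcl1 sequence holds matches to the NF-kB motif that begin 90, 71 and 70 bases before the start, the last 2 of which overlap. The printed Ptx3 sequence holds neither of these patterns, which says only that these letters are not in this window. Of 20 genes looked up, 16 were in the table. The NF-kB motif was found in 6 of the 16 (Cxcl1, Cxcl2, Il6, C3, Srpx and Ms4a4d) and the AP-1 motif in 3 (Tnfaip6, Mmp3 and Il6), and 17.3% and 6.87% of 27025 promoters of the same length hold them. A form of the C/EBP motif (TTNNGNAA), not marked by capitals, was found in 11 of the 16 and in 36.9% of all promoters. A match is a description of letters and not of a bound site, and the genes were picked after their values were seen.

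In all, 5381844 UMIs were counted for WT and 28215539 for mgR, of which members held 821612 and 2871168. The median member had 5193 UMIs and 2096 genes in the WT library and 6948.5 UMIs and 2411 genes in the mgR library. According to the methods of the study, comparisons were made in male mice. Against this, both libraries mixed cells with Xist UMIs and cells with UMIs of the Y-linked genes Ddx3y, Uty, Kdm5d and Eif2s3y, and in different proportions. Xist alone was found in 38 WT members (24.5%) and 235 mgR members (57.6%), and Y-linked UMIs alone in 77 (49.7%) and 118 (28.9%). Genotype ratios of many genes below are therefore also given within both kinds of member. With 1 library a genotype there is no replicate check and no test. Levels are UMI counts per 1000000 UMIs (CPM) summed over the cells named, and intervals in parentheses are 95% intervals of counting error only. In these sums, fewer cells that express a gene and less RNA per cell cannot be told apart. The libraries shared 2 cell barcodes, none of them of a member.

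Members made up 47.8% (42.3 to 53.4) of gated fibroblasts in the WT library and 46.2% (42.9 to 49.6) in the mgR library, so the mix of fibroblasts by this rule was near equal in both. As a share of all cells they were 17.7% (15.2 to 20.4) and 11.9% (10.8 to 13.0), because gated fibroblasts themselves were 37.0% and 25.7% of cells. The count that chose the members had no gap at its threshold. A difference of 1 gene in favor of set B was found in 49 WT and 101 mgR cells, a difference of 0 in 53 and 116, and of 1 in favor of set A in 24 and 88. Of the members, 101 (65.2%) and 335 (82.1%) held at least 3 set B genes, and 63 (40.6%) and 104 (25.5%) held no set A gene. The mgR members were deeper, and the part of depth in these shares was not tested.

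**Figure D1:**
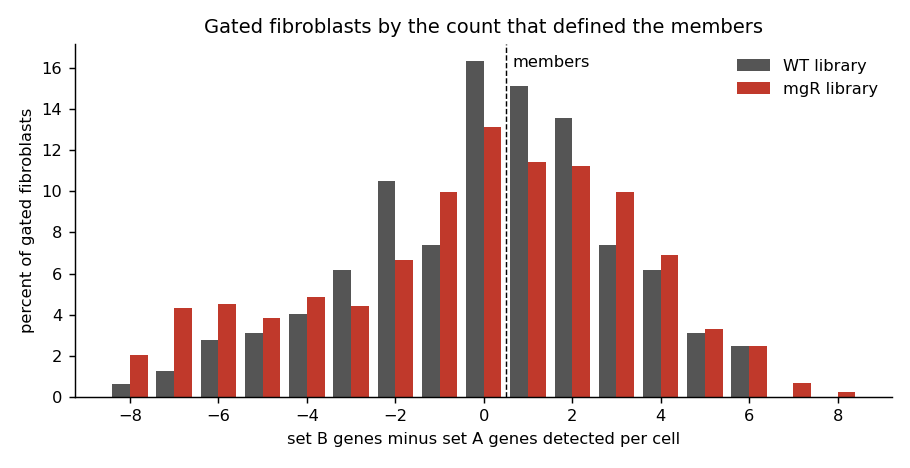
Number of set B genes minus number of set A genes detected in each gated fibroblast (horizontal axis), as a percent of the gated fibroblasts of the WT library (324 cells, gray) and the mgR library (883 cells, red). Members lie right of the dashed line, and the bars pass through it without a gap in both libraries.

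The members also held fibroblast genes that the gate did not use. Dpt, a dermatopontin matrix gene, stood at 2595 CPM in WT and 2480 CPM in mgR members, and Vim at 5455 and 5823 CPM. Pdgfra was at 230 and 126 CPM, against 0 and 0.437 CPM in cells gated on C1q. No Pdgfra UMI was found in 61 of 155 WT and 206 of 408 mgR members. The fibroblast identity list summed to 31685 and 29358 CPM in members and to 4484 and 3584 CPM in cells gated on C1q. None of 12 fibroblast identity genes was 2-fold higher or lower than in set A fibroblasts in both libraries. Of 7 mural cell markers, the potassium channel subunit gene Abcc9 was the highest, at 138 and 82.9 CPM, and Myh11 was at 0 and 4.88 CPM. The mural list summed to 250 and 229 CPM in members and to 146 and 142 CPM in set A fibroblasts. The 8 endothelial markers summed to 24.3 and 36.2 CPM, the 6 mesothelial markers to 1.22 and 0.348 CPM with 4 of them at 0 in both libraries, and the 5 melanocyte markers to 3.65 and 4.88 CPM. The 9 macrophage markers summed to 52.3 CPM in WT and 287 CPM in mgR members, against 18846 and 24106 CPM in cells gated on C1q. Most of the mgR sum was Lyz2, at 196 CPM, of which 79.8% came from 10 members. Their part in the results below was not tested.

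Set B itself was spread unevenly over the members. Tnfaip6 was found in 75.5% of WT and 67.2% of mgR members, against 20.7% and 25.3% of set A fibroblasts. Ptx3 was found in 60.0% and 55.4%, against 19.0% and 26.2%. Mmp3, which encodes the protease stromelysin-1, was found in 52.9% and 63.2%, and Igfbp3, whose product binds insulin-like growth factors, in 48.4% and 50.5%. Col8a1, a chain of type VIII collagen, Ms4a4d, a membrane-spanning protein gene, and Srpx, a sushi-repeat protein gene, were found in 23.9%, 40.6% and 29.0% of WT members and 46.6%, 59.3% and 35.8% of mgR members. Smoc2, a secreted calcium-binding matrix protein gene that gave the cells their working name, was the rarest, in 17.4% and 29.9%. Cells gated on C1q, a measure of free RNA, held Ptx3 in 0.417% and 0.127% of cells and Tnfaip6 in 2.08% and 0.634%, at median depths of 5916 and 8314 UMIs, and no UMI of Smoc2 or Srpx.

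Levels also varied widely from member to member. Per 10000 UMIs, Tnfaip6 ran from 0 through a median of 5.36 to 182 in WT members and from 0 through 2.90 to 110 in mgR members. Mmp3 ran from 0 through 1.31 to 467 and from 0 through 3.997 to 153. Ptx3 reached 107 and 85.6 with medians of 2.12 and 1.38, and Igfbp3 reached 141 and 87.6 with medians of 0 and 0.725. By contrast Dcn, the decorin gene, was present in every member, with medians of 153 and 172. The 10 highest members held 58.2% of WT Mmp3 UMIs and 24.4% of the mgR ones, and WT levels rest on fewer cells. Since 10 cells are a larger part of 155 WT than of 408 mgR members, such shares are not on the same scale in the 2 libraries.

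Genes of set A were low in members but not absent. Prg4, which encodes the joint and tendon lubricant lubricin, was at 374 and 398 CPM in members and at 5516 and 5361 CPM in set A fibroblasts. Fmod, the fibromodulin gene, was at 6.09 and 18.1 CPM against 308 and 527 CPM, and Wif1, a secreted Wnt inhibitor, at 337 and 127 CPM against 1633 and 1005 CPM.

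**Figure D2:**
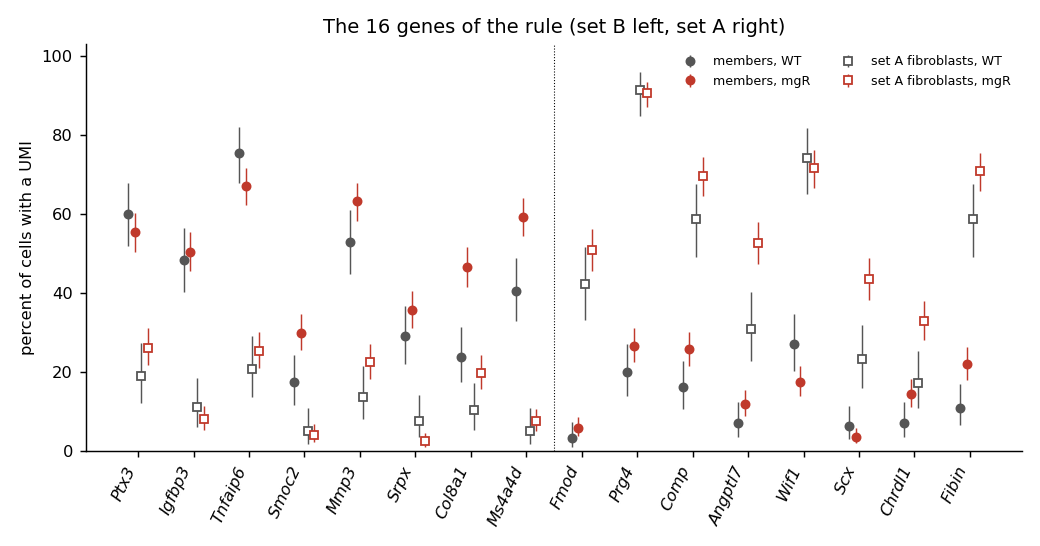
Percent of cells with at least 1 UMI (vertical axis) for the 8 set B genes and the 8 set A genes in members (filled circles) and set A fibroblasts (open squares) of the WT (gray) and mgR (red) libraries. Bars are exact 95% binomial intervals, and Tnfaip6 in WT members (75.5%) and Smoc2 in WT members (17.4%) mark the range within set B.

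Among the genes outside the rule that were higher in members than in set A fibroblasts of both libraries were chemokine, complement and immediate early genes. Of 2990 genes tested, 120 (4.01%) were at least 2-fold higher in members in both libraries and 38 (1.27%) at least 2-fold lower. The same cells and correlated genes chose the populations, so these ratios carry no test. In the NF-kB and inflammatory list, 10 of 17 genes were 2-fold higher and none lower, with a median log2 ratio of 1.21 in the WT and 1.34 in the mgR library, where the median of all genes was -0.03 and 0.03.

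Cxcl1, a neutrophil-attracting chemokine gene, stood at 836 CPM in WT and 2428 CPM in mgR members and at 96.7 and 94.6 CPM in set A fibroblasts, ratios of 8.65 (6.65 to 11.4) and 25.7 (22.6 to 29.2). After each cell was thinned to 2000 UMIs, it was found in 33.1% and 49.1% of members and in 5.50% and 5.70% of set A fibroblasts. Ccl2, which attracts monocytes through CCR2, was at 891 and 736 CPM against 61.8 and 34.0 CPM. It was concentrated in few cells, since 10 members held 81.8% and 71.4% of its UMIs. Found in 14.1% and 17.2% of thinned members against 2.75% and 3.42% of thinned set A fibroblasts, it was nevertheless more frequent in members of both libraries.

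Ccl7 and Cxcl2 rested on so few WT cells that their WT ratios cannot be read as a property of the members at large. Ccl7, another CCR2 ligand, had a WT ratio of 16.1, but 10 members held 94.0% of its UMIs, and without the 10 highest cells of each population 10 UMIs remained in members and 0 in set A fibroblasts. Cxcl2 had a WT ratio of 4.02 (2.93 to 5.61), which was 1.38 without those cells, and an mgR ratio of 14.1 (11.9 to 16.7), which was 20.04. For the other 10 of the 12 highest genes, the ratio without those cells was at least 4.75 in both libraries, the value of Tnxb in the mgR library. Leaving out 10 cells raises the ratio where few set A fibroblasts held the gene, so this cannot show how broadly members held it. In the WT library Ptgs2 went from 4.46 to 17.1 with 3 UMIs left in set A fibroblasts. Cxcl1 went from 8.65 to 79.3 there, with 0 left.

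Cells gated on C1q held more Ccl2 (2623 and 2531 CPM), Ccl7 (1924 and 2614 CPM) and Cxcl2 (23643 and 14328 CPM) than members did, and Cxcl1 at 1408 and 1027 CPM, and the part of their RNA was not tested.

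Other genes of the list were higher as well. Nfkb1, a subunit of NF-kB, was at 534 and 513 CPM in members and 138 and 115 CPM in set A fibroblasts. Nfkbia, its inhibitor, was 2.05 and 2.43 times higher, and Ptgs2, the inducible cyclooxygenase gene, 4.46 and 5.02 times, with 54.8% and 31.6% of its UMIs in 10 members.

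Classical complement genes made up a second group. C3, the central complement protein gene, was at 671 and 783 CPM in members against 162 and 177 CPM, and was found in 36.6% and 49.1% of thinned members against 12.8% and 18.5%. C4b was at 1255 and 1151 CPM against 341 and 188 CPM, a ratio of 3.68 and 6.12. C1s1 and C1ra, protease genes of complement C1, were 6.08 and 3.07 times higher in the WT library and 6.14 and 2.87 times in the mgR library. In all, 4 of 8 complement genes were 2-fold higher in both libraries and 1 was lower, Cd59a, whose product blocks the membrane attack complex, with ratios of 0.491 and 0.432.

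Immediate early and heat shock genes were another group, with 6 of 22 genes 2-fold higher and none lower. Junb was at 2320 and 2987 CPM against 604 and 758 CPM, Klf4 at 1692 and 2301 CPM against 587 and 596 CPM, and Zfp36, whose product shortens the life of cytokine messages, at 368 and 404 CPM against 98.3 and 105 CPM. Fos had ratios of 1.13 and 0.909. Outside this list, the orphan nuclear receptor gene Nr4a3 was 4.26 (3.03 to 6.13) and 6.84 (5.60 to 8.42) times higher and the stress response gene Gadd45b 3.99 and 4.11 times. These genes are also known to respond to enzymatic digestion, and the part of handling was not tested.

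Matrix genes split by type. Adamts1, a protease that cleaves versican, was 5.85 (4.44 to 7.83) and 7.68 (6.54 to 9.06) times higher in members, and the protease inhibitor genes Serpine2 and Serpina3n 2.14 and 2.26 times in the WT and 2.74 and 2.54 times in the mgR library. Of 13 collagen genes, Col14a1, a fibril-associated collagen, was 3.25 and 3.32 times higher, Col4a1, of basement membranes, 2.70 and 3.88 times, and the other 11 did not pass 2-fold in both libraries. Tnxb, the tenascin-X gene, was 4.63 and 3.996 times higher, and Fmo2, a flavin monooxygenase gene, 5.84 and 5.75 times. Gas6, a ligand of the TAM receptors that clear dying cells, was at 1018 and 1311 CPM against 284 and 268 CPM. The splicing factor gene Cwc25 completed the 12 highest, at 4.30 and 5.33 times.

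Genes of cartilage and tendon matrix were among the 12 lowest, and of 7 genes of that list 2 were 2-fold lower in both libraries and none higher. Chad, which encodes chondroadherin, had 0 UMIs in WT and 1 UMI in mgR members, against 198 and 671 CPM in set A fibroblasts. Its WT level rests on few cells, since 4 UMIs remained in WT set A fibroblasts without the 10 highest. Prelp, a leucine-rich proteoglycan gene, was at 484 and 385 CPM against 1552 and 1821 CPM, and Cytl1, of cartilage, at 144 and 466 CPM against 880 and 1755 CPM. Abi3bp (ratios of 0.382 and 0.276), Ecrg4 (0.364 and 0.247) and Tsc22d3, a glucocorticoid-induced gene (0.438 and 0.224), were lower as well. Npy, the neuropeptide Y gene, had 1 and 23 UMIs in members, and 1 UMI was left in WT set A fibroblasts without the 10 highest cells. Pi16, a marker of adventitial progenitor fibroblasts, was at 24.3 and 64.1 CPM against 186 and 203 CPM, while 2 other genes of that list, Ly6a and Penk, were 2-fold higher in members. Fxyd6, Mfge8 and Lmcd1 had ratios between 0.341 and 0.449. Cd74, an antigen presentation gene, had ratios of 0.370 and 0.165, which rest on few cells. Without the 10 highest cells, 7 Cd74 UMIs in members and 0 in set A fibroblasts remained in the WT library and the mgR ratio was 0.698, and in mgR cells with Xist alone the Cd74 ratio was 1.44.

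Of 9 Wnt pathway genes, 4 were 2-fold lower in members of both libraries and none higher. The 4 were the secreted antagonists Dkk3 (0.484 and 0.366) and Frzb (0.483 and 0.452), the enhancer Rspo3 (0.466 and 0.419) and the ligand Wnt5a (0.363 and 0.427). The antagonist genes Sfrp1 (1.59 and 2.08) and Sfrp2 (6.82 and 1.86) had ratios above 1. None of 6 integrin genes differed 2-fold in both libraries, nor did 14 of 15 microfibril and elastic fiber genes. The exception was Ltbp2, a latent TGF-beta binding protein relative of fibrillin, with ratios of 0.266 and 0.271.

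**Figure D3:**
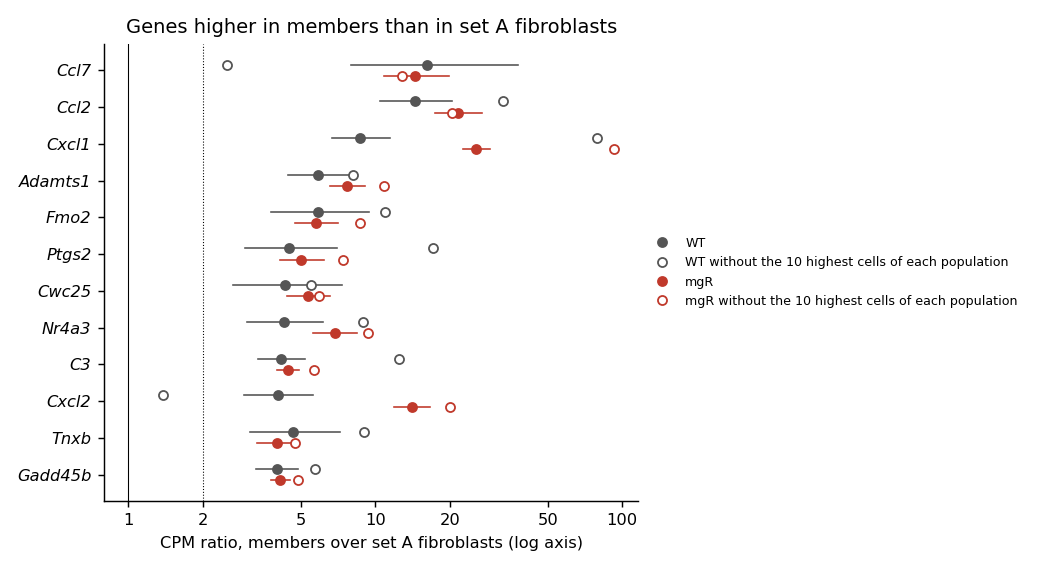
CPM ratio of members over set A fibroblasts on a log axis for the 12 named genes that were highest in both libraries, in the WT (gray) and mgR (red) library. Bars are 95% counting intervals. Open circles leave out the 10 highest cells of each population. For Ccl7, Ccl2 and Cxcl1 in the WT library, 0 UMIs then remained in set A fibroblasts and 3 were used. Cxcl2 in the WT library is then at 1.38.

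Among gated fibroblasts, Igfbp3 was about as frequent with Tnfaip6 as without it, and each of the 2 genes had others that were more frequent beside it. These pairs were picked by looking through the data and were not tested. So that depth did not shape the counts, pairs were counted in all gated fibroblasts of at least 2000 UMIs, each thinned to that number. These cells pool members with set A fibroblasts, so genes higher in members can go together through that split alone. Some shares among members alone are therefore given as well. Tnfaip6 was found in 66 of 95 WT cells with Ptx3 (69.5%) and in 47 of 197 without it (23.9%), and in 61.0% and 21.1% of mgR cells. Igfbp3 differed less, and was found in 25.3% (24 of 95) of WT cells with Ptx3 and 22.3% (44 of 197) without it, and in 22.5% and 19.0% of mgR cells. It was also found in 23.0% of WT cells with Tnfaip6 and 23.5% without, and in 23.2% and 18.3% of mgR cells. Among members alone, Tnfaip6 was found in 46.4% of WT cells with Igfbp3 and 64.0% without. In mgR members the shares were 43.3% and 55.3%. Both genes belong to the rule that chose the members.

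Mmp3 and C3 were more frequent in cells with Igfbp3. Mmp3 was found in 52.9% of WT cells with Igfbp3 and 21.9% without, and in 59.5% and 29.4% of mgR cells. Among members alone it was found in 55.4% and 36.0% of WT cells and in 64.2% and 48.6% of mgR cells. C3 was found in 48.5% and 18.8% of WT cells and 51.8% and 28.8% of mgR cells, and in 68.8% of 16 WT and 67.2% of 61 mgR cells with Smoc2. Among members alone, the C3 shares with and without Igfbp3 were 48.2% and 29.1% in WT and 56.0% and 45.5% in mgR. Within gated cells of Xist UMIs alone and of Y-linked UMIs alone, C3 was likewise more frequent with Igfbp3 in both libraries, at 45.5% to 54.5% against 14.3% to 29.7%. With Tnfaip6, Mmp3 was found in 32.7% of WT cells against 26.8% without, and in 50.2% against 28.9% of mgR cells. C3 was found in 27.4% of WT cells with Tnfaip6 and 24.6% without, and in 42.1% and 29.5% of mgR cells.

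Among members of at least 2000 UMIs, 55 of 142 WT cells (38.7%) and 141 of 389 mgR cells (36.2%) held Tnfaip6 without Igfbp3 after thinning. Igfbp3 without Tnfaip6 was held by 30 (21.1%) and 76 (19.5%), both genes by 26 and 58, and neither by 31 and 114. Between the first 2 of these groups, called Tnfaip6 members and Igfbp3 members, 56 of 3029 genes (1.85%) were at least 2-fold higher in Tnfaip6 members of both libraries and 36 (1.19%) in Igfbp3 members.

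Genes that make hyaluronan and its partner versican led the first direction. Hyaluronan is built from UDP-glucuronic acid and UDP-N-acetylglucosamine, which the products of Ugdh, and of Gfpt2 and Uap1, help to make, and Has2 encodes the synthase. Has2 was at 259 CPM in WT Tnfaip6 members and 57.9 CPM in WT Igfbp3 members, and at 174 and 14.8 CPM in the mgR library, ratios of 4.48 (2.32 to 9.70) and 11.8 (5.61 to 29.7). Has1, a sister synthase, had 16 and 58 UMIs in Tnfaip6 members and 0 UMIs in Igfbp3 members of both libraries. With the 0 set to 3 UMIs its ratios were 2.95 and 8.27, with lower counting limits of 2.13 and 6.51. These UMIs sat in few cells, since 10 Tnfaip6 members or fewer held 100% and 89.7% of them. After thinning, Has1 was found in 6 of 199 mgR members with Tnfaip6 (3.02%) and 6 of 190 without it (3.16%). In WT members it was found in 6 of 81 and 0 of 61. Uap1 was 4.46 and 3.50 times higher, Gfpt2 3.84 and 3.23 times, Ugdh 3.80 and 3.06 times, and Vcan, the versican gene, 2.99 (2.20 to 4.15) and 4.09 (3.25 to 5.20) times. Of 5 genes of the hyaluronan and versican list, 4 were 2-fold higher in both libraries and none lower.

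These genes did not stand out between members and set A fibroblasts as a whole. Vcan was 0.809 and 1.04 times as high in members as in set A fibroblasts, and Has2 2.56 and 1.71 times. Only Ugdh of the 5 list genes passed 2-fold in both libraries, at 2.53 and 2.83. Has2 was found in 19.5% of WT gated fibroblasts with Tnfaip6 and in 6.15% without, and in 17.8% and 5.94% of mgR ones. In WT cells with Xist alone the 2 shares were 9.52% and 7.02%, from 2 of 21 and 4 of 57 cells, and in the other 3 combinations of library and sex-linked UMIs the share was higher with Tnfaip6. By Igfbp3, Has2 was found in 10.3% of WT gated fibroblasts with it and 11.6% without, and in 2.98% and 11.2% of mgR ones.

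Other genes of Tnfaip6 members were Thbs1 and Postn, which encode the matricellular proteins thrombospondin-1 (3.07 and 3.39 times higher) and periostin (2.36 and 3.996 times), the nuclear receptor gene Nr4a2 (4.81 and 2.89 times) and the cAMP phosphodiesterase gene Pde4b (6.16 and 3.08 times). Set A genes went both ways. Prg4 was 3.41 and 6.10 times and Wif1 4.07 and 7.97 times higher in Tnfaip6 than in Igfbp3 members, while Comp had ratios of 0.220 and 0.437 and Chrdl1 of 0.185 and 0.249. Ccl2 was 5.68 and 3.44 times higher. Mpp7, S100a4 and Kdm6b had ratios between 2.56 and 5.90. The WT values rest on few cells, since 10 Tnfaip6 members held 82.7% of WT Has2 UMIs and 99.1% of WT Ccl2 UMIs. In the mgR library 10 Tnfaip6 members held 87.0% of Ccl2, 77.1% of Wif1, 68.8% of Prg4 and 45.6% of Has2 UMIs. The mgR Igfbp3 members held 7 Has2 UMIs in all.

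In the other direction, Fos and Jun, which encode AP-1 subunits, stood at 3061 and 2118 CPM in WT Igfbp3 members against 532 and 701 CPM in Tnfaip6 members, and at 2068 and 1778 CPM against 589 and 773 CPM in the mgR library. Of 22 immediate early and heat shock genes, 4 (Fos, Jun, Egr1 and Hspa1a) were 2-fold higher in Igfbp3 members of both libraries. In Tnfaip6 members 1 was (Klf4), and the part of handling in this split was not tested. Ogn, the osteoglycin gene, was at 891 and 1023 CPM against 64.1 and 296 CPM. Ccn1 and Ccn5, of the CCN matricellular family, had ratios of 0.0443 and 0.159 in the WT and 0.313 and 0.367 in the mgR library, and Clec3b, which encodes tetranectin, 0.121 and 0.442. Txnip, Fmo2, Vegfd, Tent5a, Cdc42ep3 and Tmem64 had ratios between 0.135 and 0.434. Fbn1 was at similar levels in both kinds of member, at 151 and 156 CPM in the WT and 160 and 169 CPM in the mgR library, and the ratios of C3 and C4b were 0.759 to 0.895. Of 8 complement genes, 1, C1s1, was 2-fold higher in Igfbp3 members of both libraries. In the WT library the Tnfaip6 members included 10 cells with Xist alone and 33 with Y-linked UMIs alone and the Igfbp3 members 11 and 13, and in the mgR library 81 and 45, and 46 and 20. The part of this mix was not tested.

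**Figure D4:**
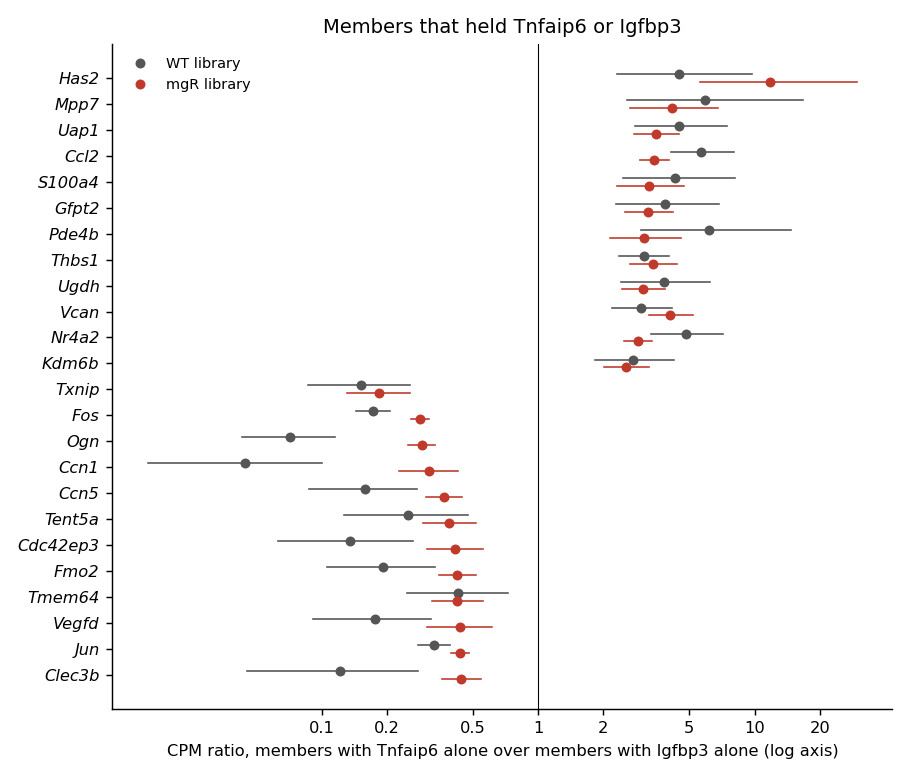
CPM ratio, on a log axis, of members with Tnfaip6 alone over members with Igfbp3 alone after thinning, in the WT library (55 and 30 cells, gray) and the mgR library (141 and 76 cells, red), for the 12 highest and 12 lowest named genes. Bars are 95% counting intervals, and all ratios of the upper 12 genes are above 2.5 and all of the lower 12 below 0.45.

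Genotype was compared within the members, beginning with Fbn1, the gene that carries the mgR allele (chr2:125300594-125507993, minus strand, GRCm38, protein coding). Fbn1 was at 189 CPM in WT members, from 155 UMIs, and at 159 CPM in mgR members, from 457 UMIs, a ratio of 0.844 (0.702 to 1.02) that includes 1. It was found in 49.0% and 52.9% of members. The ratio was 0.671 (0.5003 to 0.913) in members with Xist alone and 0.858 (0.647 to 1.14) in those with Y-linked UMIs alone, 0.777 (0.620 to 0.981) in set A fibroblasts, 0.720 as the mean of per-cell CPM in members, and 1.04 after thinning, which also left out shallow cells and chose the members again. The direction in members thus changed with the setting. Another gene overlaps Fbn1 on the other strand, and how the 3-prime assay counts messages of the mgR allele was not tested.

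Of 3027 genes, 24 (0.793%) were at least 2-fold higher in mgR members and 26 (0.859%) at least 2-fold lower. After thinning to 2000 UMIs, with members chosen again, the counts were 70 and 67. The counting interval lay above 1 for 477 genes (15.8%) and below 1 for 438 (14.5%). The median log2 ratio of all genes was 0.01. Most genes thus lay within 2-fold. The named genes below are those that held their direction in both sex-linked kinds of member, after thinning and per cell.

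Pdgfra, the PDGF receptor alpha gene of fibroblasts, was lower in mgR members. It was at 230 CPM in WT and 126 CPM in mgR members, a ratio of 0.550 (0.460 to 0.659), with 0.552 in members with Xist alone, 0.534 with Y-linked UMIs alone and 0.483 in set A fibroblasts. Itga8, an integrin alpha chain gene, was at 139 and 79.1 CPM (0.570, 0.453 to 0.720) and F2r, the thrombin receptor gene, at 242 and 141 CPM (0.581, 0.489 to 0.692). Bambi, a decoy receptor of TGF-beta and BMP signals, was at 175 and 95.8 CPM (0.546, 0.445 to 0.673). For Itga8, F2r and Bambi the ratios were 0.508, 0.573 and 0.651 with Xist alone, 0.546, 0.673 and 0.630 with Y-linked UMIs alone, and 0.743, 0.874 and 0.709 in set A fibroblasts.

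Some ratios were near or above 1 in set A fibroblasts. Tsc22d3 was at 241 and 124 CPM in members, a ratio of 0.515 (0.431 to 0.615), against 1.01 (0.894 to 1.13) in set A fibroblasts. Cpe, the carboxypeptidase E gene, had a ratio of 0.515 (0.422 to 0.631) against 1.06 (0.861 to 1.31), and Lpl, the lipoprotein lipase gene, 0.526 (0.433 to 0.641) against 1.31 (0.950 to 1.84). Over all members, the intervals of these genes did not overlap with those in set A fibroblasts. How many of all genes did so was not counted, and these genes were picked by their ratios in members, so they cannot be called particular to members. In members with Xist alone and with Y-linked UMIs alone the ratios were 0.528 and 0.646 for Tsc22d3, 0.669 and 0.513 for Cpe, and 0.325 and 0.720 for Lpl. There the intervals of Cpe with Xist alone (0.446 to 1.03) and of Lpl with Y-linked UMIs alone (0.524 to 0.995) overlapped those in set A fibroblasts. The set A ratios are over all their cells, of which 21.6% in WT and 65.5% in mgR held Xist alone. They are not matched by sex-linked UMIs, so this cannot show whether the populations differ within either kind. After thinning, the ratios in members were 0.531 for Tsc22d3, 0.507 for Cpe and 0.751 for Lpl. The difference between the populations was not tested. Neat1, a nuclear long noncoding RNA, had a ratio of 0.449, and the noncoding AY036118 0.2003, both also low in set A fibroblasts (0.611 and 0.241). In cells gated on C1q, Neat1 was at 873 CPM in WT and 603 CPM in mgR, and AY036118 at 3029 and 636 CPM. Srsf5, Slc5a3 and Slc29a1 had ratios of 0.574, 0.570 and 0.585 in members and of 0.950, 0.654 and 0.517 in set A fibroblasts.

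Higher in mgR members were Mfap5, a microfibril-associated glycoprotein gene, at 196 and 344 CPM (1.76, 1.49 to 2.09), and Sfrp1, a secreted Wnt antagonist gene, at 204 and 322 CPM (1.58, 1.34 to 1.87). Mfap5 had a ratio of 1.21 in members with Xist alone, 1.91 with Y-linked UMIs alone and 1.79 in set A fibroblasts, and Sfrp1 of 1.37 and 1.74 in the sex-linked kinds. Rack1 (1.83) and Tpt1 (1.81), which are abundant in growing cells, were also higher in set A fibroblasts (1.67 and 1.46). Ccnd2, the cyclin D2 gene, was at 77.9 and 138 CPM (1.77, 1.36 to 2.34), and in the sex-linked kinds its ratio was 1.98 for Xist and 1.26 (0.852 to 1.90) for Y-linked UMIs. In set A fibroblasts the ratio of Ccnd2 was 1.93 and that of Sfrp1 1.21. Btg2, an immediate early antiproliferative gene, had a ratio of 1.70 (1.40 to 2.08) against 1.02 (0.802 to 1.30) in set A fibroblasts, with 1.26 (0.914 to 1.78) in members with Xist alone and 2.64 with Y-linked UMIs alone. The other 6 named genes, Cox7a2l, Atp5o, Emd, Ugp2, Capns1 and Impdh2, had ratios of 1.56 to 1.70. In set A fibroblasts their ratios ran from 0.870 (Emd) to 1.62 (Cox7a2l).

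Neutrophil-attracting chemokine genes were higher in mgR members, though 10 WT cells held over 50% of their UMIs, so that the naming rule left them out, and Cxcl2 was far higher in cells gated on C1q than in members. Cxcl1 had a ratio of 2.90 (2.68 to 3.14), with 2.19 in members with Xist alone, 5.20 with Y-linked UMIs alone and 0.978 in set A fibroblasts, and was found in 38.7% of WT and 57.1% of mgR members. Cxcl2 had a ratio of 2.65 (2.32 to 3.04), with 1.70 and 6.03 in the sex-linked kinds, and the 10 highest members held 92.3% of its WT UMIs. Ccl2 was lower, at a ratio of 0.826 (0.759 to 0.899). Together, 3 of 21 NF-kB and inflammatory genes were 2-fold higher and none lower, and the median log2 ratio of the list was 0.09. Macrophage markers, Lyz2 above all, were also higher in mgR members. In set A fibroblasts they summed to 42.8 CPM in WT and 227 CPM in mgR, so this rise was not particular to members. The part of these markers was not tested.

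**Figure D5:**
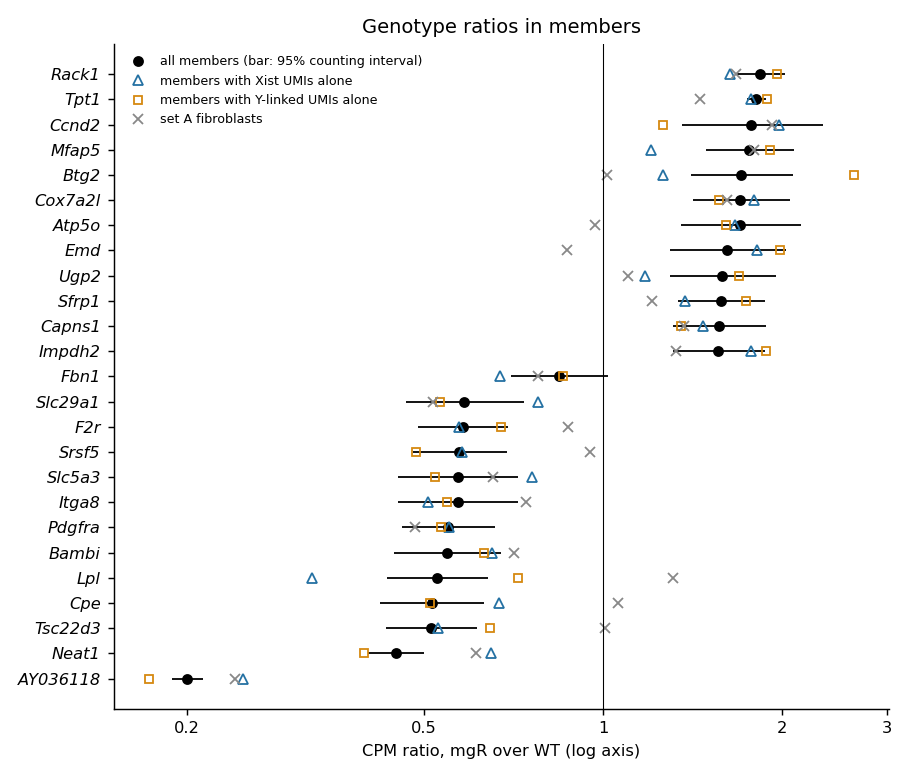
CPM ratio of mgR over WT members on a log axis for Fbn1 and the 24 genes named by the rule (black, with 95% counting intervals), beside members with Xist UMIs alone (triangles), members with Y-linked UMIs alone (squares) and set A fibroblasts (crosses). Cpe, Lpl and Tsc22d3 lie at 0.515, 0.526 and 0.515 in members and at 1.06, 1.31 and 1.01 in set A fibroblasts.

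Signaling lists were set beside the shares of all genes, 15.8% with an interval above 1 and 14.5% with one below 1. Among 16 TGF-beta and activin genes, none had an interval above 1 and 6 had one below 1, with a median log2 ratio of -0.25. Tgfb1, the ligand gene, was at 108 and 64.8 CPM (0.598), Tgfbr1, its receptor gene, at 112 and 68.6 CPM (0.613), and Ltbp4, a latent TGF-beta binding protein gene, at 1114 and 829 CPM (0.745). The list median was -0.04 in members with Xist alone, where Tgfb1 and Tgfbr1 had ratios of 1.02 and 1.10, and -0.31 in those with Y-linked UMIs alone. Among 10 mTORC1-responsive genes, none had an interval above 1 and 4 had one below 1. Among these 4, the chaperone gene Hspa5 was at 2636 and 1696 CPM (0.643), with 0.921 and 0.644 in the sex-linked kinds.

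Of 6 genes of the IGF axis, besides Igfbp3, 4 had an interval below 1 and 1 above, and the list median was -0.56. Igf1 was at 306 and 206 CPM (0.674), Igfbp5 at 374 and 232 CPM (0.622), and Igfbp4 at 1206 and 1550 CPM (1.28). Of 14 microfibril and elastic fiber genes, 2 had an interval above 1 (Mfap5 and Fbln2) and 3 below (Mfap4, Fbln1 and Efemp1), with a median of 0.04. The shares of all genes were 15.8% above and 14.5% below. Of 14 collagen genes, 1 had an interval above 1 and 5 below, with Col1a1 at 959 and 867 CPM. Of 6 integrin genes, 2 had an interval below 1, Itga8 and Itgb1, the beta1 integrin gene, which was at 572 and 465 CPM (0.813, 0.731 to 0.905).

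Of 12 matricellular genes, 2 had an interval above 1 and 5 below, and of 8 Wnt genes, 3 and 3. Of 8 BMP genes, 2 had an interval above 1 and 1 below, and of 15 transcription factor genes of valve and mesenchyme, none and 3. Beside the 15.8% and 14.5% of all genes, counts this small were not read as a result of these lists.

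Complement genes went both ways between the genotypes. Of 8 genes, 3 had an interval above 1 and 2 below, beside 15.8% and 14.5% of all genes, and the median log2 ratio was -0.02. C3 had a ratio of 1.17, with 1.46 in members with Xist alone and 0.882 with Y-linked UMIs alone, and C4b of 0.917, with 1.09 and 0.814. Cfb, which starts the alternative pathway, was at 25.6 CPM from 21 UMIs in WT and 95.1 CPM from 273 UMIs in mgR members (3.72, 2.39 to 6.11), with 10 members or fewer holding all WT UMIs.

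The genes of the rule themselves also differed between the libraries, as a description. Ptx3 was at 920 CPM in WT and 522 CPM in mgR members, a ratio of 0.567 (0.519 to 0.620), with 0.787 in members with Xist alone and 0.481 in those with Y-linked UMIs alone. Igfbp3 was at 953 and 596 CPM (0.625, 0.574 to 0.681) and was lower in both sex-linked kinds. Tnfaip6 was at 1826 and 1160 CPM (0.635), but its ratio was 1.09 with Xist alone. Mmp3 was at 2044 and 1902 CPM (0.931), and its ratio was 1.54 with Xist alone and 0.675 with Y-linked UMIs alone, and Smoc2 (0.740) went from 0.312 to 1.61 between them. Col8a1 was at 73.0 and 155 CPM, a ratio of 2.13 (1.62 to 2.83), with 2.45 and 1.99 in the sex-linked kinds and 2.16 after thinning. Srpx and Ms4a4d had ratios of 1.05 and 1.34.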

How the data were processed

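Droplet single-cell RNA-Seq was performed on mitral valve cells of WT and mgR mice, with 1 library per genotype (10x Genomics, 3-prime, version 3). The deposited matrices hold UMI counts, which the authors made without later normalization. Cell Ranger 7.1.0 and mm10 are named in the submitters' processing notes. Cells were filtered as in the methods of the study, with 200 to 5000 genes and at most 10% mitochondrial UMIs, which kept 875 of 1104 WT and 3438 of 3802 mgR barcodes. The members and the gene lists were chosen with earlier results of these data known.

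UMIs were summed over the cells of a population and divided by their total (CPM). Genes with a mean of at least 50 CPM were compared, and 2-fold marked a difference. No test was run. Shares have exact Clopper-Pearson intervals and ratios exact conditional binomial intervals at 95%. They cover counting error only. Sums below 3 UMIs were set to 3 in ratios. The study also dropped genes found in few cells, which was not done here. Symbols shared by more than 1 feature were left out, among them 3 genes of the lists. Named genes were the 12 highest and 12 lowest of each comparison with a mean of at least 100 CPM, without mitochondrial, ribosomal protein, haemoglobin, predicted, sex-linked and rule genes. For the genotype comparison they also had to keep their direction per cell, after thinning to 2000 UMIs and in both sex-linked kinds of cell, with no more than 50% of UMIs in 10 cells and a level at least 50% of that in cells gated on C1q. The limit on 10 cells was stricter for the WT library, which had fewer members. Up to 4 genes of a list were added. Fbn1 and the rule genes were named whatever their values. The pairs of genes, the Tnfaip6 and Igfbp3 groups, the promoters and 2 alternatives, a gate of 30 UMIs and ratios without the 10 highest cells of each population, were chosen after seeing the data.

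Doublets were marked per library with Scrublet (scanpy 1.11.5) and kept, 2 WT and 1 mgR member among them. It marked 7 WT and 51 mgR cells. Positions came from GENCODE vM21 by gene identifier, which matched 32235 of 32285 features. Python 3.11.15, numpy 2.4.6 and scipy 1.17.1 were used, and the calculations were tested on simulated data. The deposited features tables hold names only.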

Additional observations from a re-analysis of the deposited data

Results flagged for a closer look

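Between members with Xist UMIs alone and members with Y-linked UMIs alone, 13 of 207 genes of the lists (6.28%) had genotype ratios (mgR over WT) whose counting intervals lay on opposite sides of 1, as did 55 of all 3027 genes compared (1.82%). The difference between the 2 kinds of member was not tested, and Xist and Y-linked UMIs mark the sex of the animal, which the pooled libraries do not tie to single mice. Many of the lists hold matrix genes. Lower with Xist alone and higher with Y-linked UMIs alone were Gsn, the gelsolin gene (0.700 and 1.11), Clec3b (0.431 and 5.60), Acta2, of smooth muscle actin (0.558 and 4.17), Ogn (0.522 and 1.39), Timp3, a metalloproteinase inhibitor (0.890 and 1.10), Eln, the elastin gene (0.542 and 2.23), and the immediate early genes Atf3 (0.623 and 1.23) and Zfp36 (0.765 and 1.75). Higher with Xist alone and lower with Y-linked UMIs alone were Thbs1 (1.60 and 0.320), Postn (1.24 and 0.766), Cd44, the hyaluronan receptor (2.40 and 0.466), Itih5, of inter-alpha-inhibitor heavy chain type (1.81 and 0.660), and Fn1, the fibronectin gene (1.84 and 0.380). In the WT library 38 members had Xist alone and 77 Y-linked UMIs alone, so these ratios rest on few cells.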

How the results depend on the processing

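No paired analysis was possible because each genotype has 1 library. Of the alternatives, thinning each cell to 2000 UMIs gave 70 genes at least 2-fold higher and 67 lower in mgR members, and brought Fbn1 to 1.04. Members with Xist alone gave 56 and 66 genes and an Fbn1 ratio of 0.671, and members with Y-linked UMIs alone 55 and 67 genes. A minimum of 200 CPM gave 10 and 10 genes between genotypes and 43 and 10 against set A fibroblasts, and no minimum CPM 421 and 276, and 332 and 266, with fewer and more genes compared by construction. A margin of at least 2 set B genes lowered the share of members to 32.7% in the WT and 34.8% in the mgR library, and among cells with Y-linked UMIs alone it was 53.5% and 55.7%. The adventitial list, whose median log2 ratio between genotypes was 0.33, went to -0.14 with that margin, -0.0018 without C1q UMIs and -0.51 with Xist alone. Against set A fibroblasts, Ccl7 went to 0.996 with Xist alone, from 5 WT UMIs in members and 2 in set A fibroblasts, and the ratio nearest to 1 of Cd74 to 1.09 thinned, 1.03 without Scrublet-marked cells, 1.07 with the margin and 1.44 with Xist alone. Apart from effects by construction, the cause was not tested. Of 240 values of the genes named between genotypes, 217 moved by less than counting error, but the naming rule itself had fixed their direction after thinning, per cell and in both sex-linked kinds of member. Depth limits genes under 50 CPM, and the shallower WT library sets the precision of each ratio.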

Other observations

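Clock genes differed between the libraries in members. Nr1d1, which encodes the circadian repressor REV-ERB alpha, had 27 UMIs in WT and 269 in mgR members, a CPM ratio of 2.85 (1.92 to 4.41), with 2.53 in members with Xist alone, 3.51 with Y-linked UMIs alone and 2.66 in set A fibroblasts. Nr1d2, its paralog, had a ratio of 2.27 (1.54 to 3.47). The hour of collection is not given in the sources used here, so it and genotype cannot be told apart. Ly6a, of adventitial and progenitor cells, was at 253 and 648 CPM (2.56, 2.22 to 2.97) in members and had a ratio of 3.01 in set A fibroblasts.

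Vegfa was at 134 and 57.5 CPM (0.429, 0.335 to 0.551), and 0.291 in set A fibroblasts. Ptgds, of prostaglandin D2 synthesis, had the lowest ratio of all, 0.0199, but 10 WT members held 99.2% of its UMIs. The ribosomal protein genes Rpl13a and Rpl5 had ratios of 2.36 and 2.52, and the mitochondrial gene mt-Nd4l 0.348, with similar values in set A fibroblasts (2.27, 2.86 and 0.445). These genes were chosen after their values were seen.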
